A study of Homo sapiens with 7 samples.

Results

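The genes described here are the cyclins, kinases and pocket proteins that govern passage from G1 into S phase. They are the D-type cyclins CCND1 and CCND3 with their kinases CDK4 and CDK6, the E-type cyclins CCNE1 and CCNE2 with their kinase CDK2, and the retinoblastoma family RB1, RBL1 and RBL2. They were chosen by gene symbol, with earlier results of these data known, and all 10 were found among the 14535 genes of the count table. All 10 also passed the filter on low counts that left 11230 genes for testing.

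The cells were A549, an epithelial line from a human lung adenocarcinoma, and libraries came from cells sorted as positive for β-galactosidase, an enzyme whose staining marks senescent cells. In the stretch group, 4 libraries (numbered 4 to 7) came from cells under cyclic stretch, with an elongation of 15% repeated 15 times per min over 24 h. In the doxorubicin group, 3 libraries (numbered 1 to 3) came from cells given 100 nM doxorubicin, a topoisomerase II poison, for 24 h. In both groups staining was done after 6 days. Both groups are therefore treated cells of a single tumour line, no untreated cells were analysed here, and each difference below is one between the treatments. Whether the replicates are separate cultures is not said in the labels, and the p-values below then describe the spread among these 7 libraries, part of which may be technical.

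D-type cyclins accumulate when growth factors act on a cell, bind CDK4 or CDK6, and start the phosphorylation of RB1. Phosphorylation releases E2F transcription factors, which switch on genes for DNA synthesis and the E-type cyclins, and cyclin E with CDK2 then completes the inactivation of RB1. The relatives p107 (RBL1) and p130 (RBL2) bind mainly the repressive E2F factors, and p130 is the pocket protein best known from resting and senescent cells. In senescence the inhibitor p21 (CDKN1A) binds cyclin and CDK complexes and keeps the RB family active, while D-type and E-type cyclins can stay abundant in cells that no longer divide.

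Depth differed between the groups. Total counts ran from 5636494 to 7419798 in stretch libraries and from 2611766 to 4644650 in doxorubicin libraries. A single transcript, EIF4A2, took 1.67% to 2.87% of the counts after stretch and 10.8% to 30.6% after doxorubicin. Levels are therefore given as CPM (each gene's count as a proportion of its library's total, on a fixed scale), with library sizes scaled by TMM factors, running from 1.25 to 1.33 in stretch and from 0.443 to 1.14 in doxorubicin libraries. On that scale 3 counts, taken as detection, correspond to at most 0.401 CPM in stretch libraries, and to 2.59 CPM in doxorubicin library 2, the shallowest. Log-CPM values correlated between stretch libraries at 0.939 to 0.978 and between doxorubicin libraries at 0.754 to 0.884 (Pearson, across genes). Across the groups the values ran from 0.724 to 0.941. Doxorubicin library 3 correlated with stretch libraries at 0.915 to 0.941, and with doxorubicin libraries 1 and 2 at 0.882 and 0.754. Over all genes it was thus closer to stretch than to the other doxorubicin libraries, which bears on each reading of library 3 below. Of the 6 epithelial markers, all had counts, and they summed to 2053 to 2394 CPM in stretch and 3281 to 6767 CPM in doxorubicin libraries. KRT18 averaged 459.9 CPM in stretch and 2116 CPM in doxorubicin libraries (adjusted p = 0.0199 by edgeR), and KRT7 1074 CPM in stretch and 2255 CPM in doxorubicin libraries, without overlap (adjusted p = 0.112 by edgeR). EPCAM lay the other way, from 10.2 to 14.6 CPM in stretch and from 0.865 to 4.54 CPM in doxorubicin libraries (adjusted p = 0.0574 by edgeR). Of the leukocyte markers with counts, CD68, a lysosomal protein of macrophages, averaged 18.6 CPM in stretch and 75.6 CPM in doxorubicin libraries (adjusted p = 0.0158 by edgeR), and LYZ ran from 27.1 to 31.3 CPM in stretch and from 15.6 to 42.5 CPM in doxorubicin libraries. The part of these markers in the members' levels was not tested. The fibroblast markers COL1A2 and PDGFRB, the leukocyte markers PTPRC and CD3E, and the endothelial markers PECAM1, VWF and KDR were not analysed here, and the endothelial marker CDH5 was at 0 to 0.963 CPM in stretch libraries and at 0 in doxorubicin libraries. Levels in bulk RNA cannot tell fewer cells that express a gene from less of its RNA per cell.

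None of the 10 genes reached the threshold (0.05 for the adjusted p) when stretch was set against doxorubicin with edgeR's quasi-likelihood test over all genes, where 261 genes (2.32%) were called and 221 (1.97%) were higher in doxorubicin. At an unadjusted p under 0.05 there were 4 members, CCNE1, CCND3, CCND1 and CDK6, beside 23.2% of all genes tested. The log2 fold change (stretch minus doxorubicin) was negative, toward doxorubicin, for 9 of the 10, with a median of -0.78. Over all genes tested 48.8% lay on that side and the median was 0.02. The group ranges of 3 members did not overlap, those of CCNE1, CCND1 and CDK2, all with doxorubicin above stretch, where 21.4% of all genes did not overlap and 9.88% lay in that direction. The other 7 members overlapped.

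**Figure D1:**
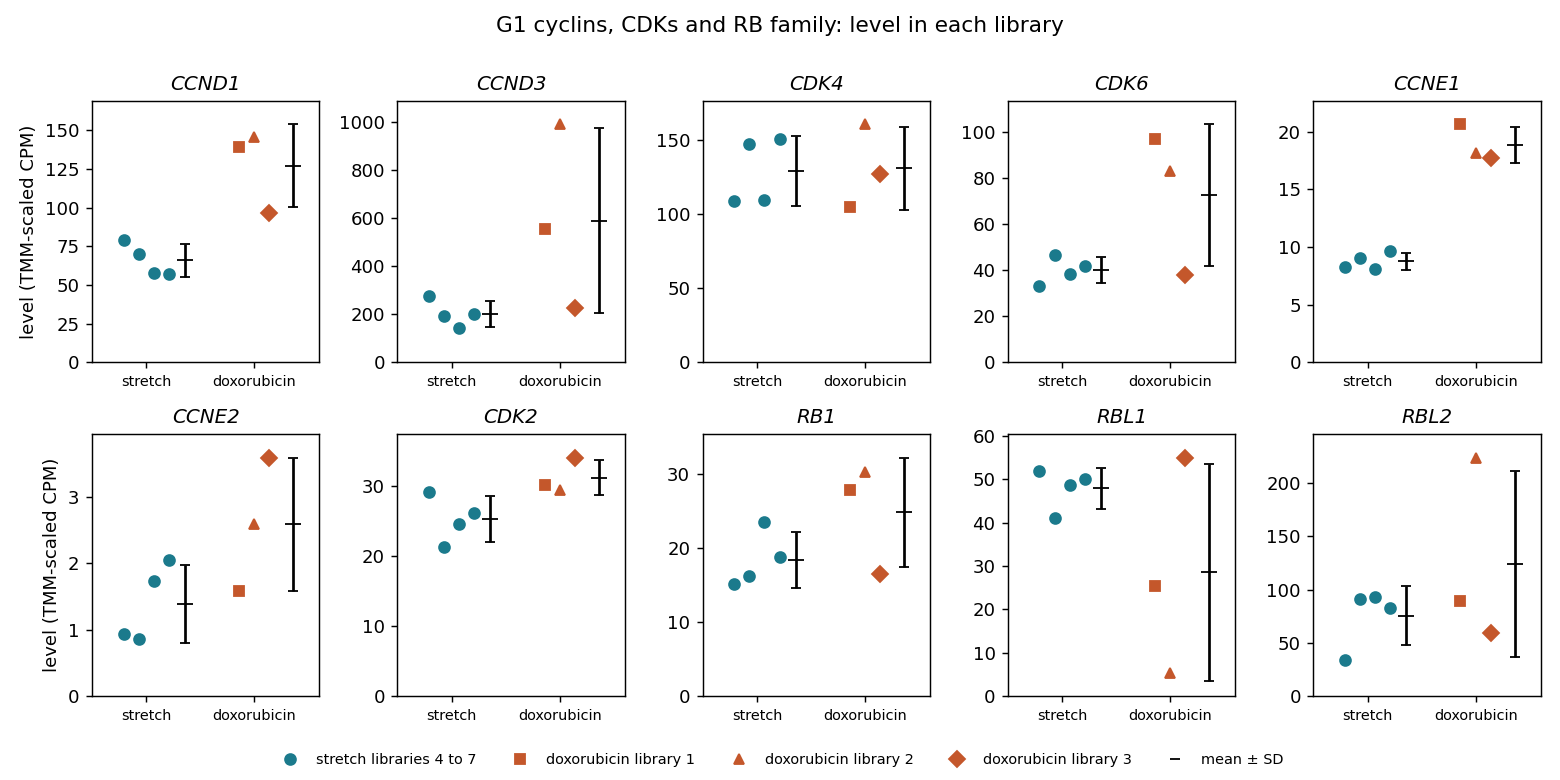
Level of each of the 10 genes in TMM-scaled CPM (linear axes from 0), with 4 stretch libraries on the left and 3 doxorubicin libraries on the right of each panel and the mean ± SD beside each group. CCNE1 sits between 8.11 and 9.68 CPM after stretch and between 17.8 and 20.6 CPM after doxorubicin, while RBL1 spreads from 5.19 to 55.0 CPM within the doxorubicin group.

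Other calling methods did not treat the genes alike. DESeq2 called CCND1, CCND3 and CCNE1, all higher in doxorubicin, where it called 10% of all genes, and limma-voom called 0. With library quality weights limma-voom called 6 members, CCND1, CCND3, CCNE1, CDK6 and RB1 toward doxorubicin and RBL1 toward stretch, but in that fit 47.0% of all genes were called. Without doxorubicin library 3, edgeR called 5 members, CCND1, CCND3, CCNE1 and CDK6 toward doxorubicin and RBL1 toward stretch, in a setting where 32.2% of all genes were called.

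Among the E-type cyclins, which activate CDK2 at the G1 to S boundary, CCNE1 had a narrow spread in both groups and did not overlap between them. CCNE1 (chromosome 19, 29811898 to 29824308, GRCh38) stood at 8.28, 9.09, 8.11 and 9.68 CPM in stretch libraries 4 to 7, against 20.6, 18.2 and 17.8 CPM in doxorubicin libraries 1 to 3. Every doxorubicin library lay above every stretch library, with a coefficient of variation of 8.35% in stretch and 8.29% in doxorubicin. The medians over all genes tested were 20.9% in stretch and 48.2% in doxorubicin. The fitted log2 fold change was -1.10 (SE 0.29), a 2.14-fold difference, and the adjusted p was 0.0663 by edgeR's quasi-likelihood test. The doxorubicin levels rest on 52, 21 and 94 counts in libraries 1 to 3. Their exact Poisson 95% intervals, which cover counting error only, were 15.4 to 27.1, 11.2 to 27.8 and 14.4 to 21.7 CPM. Each of them spans all 3 doxorubicin values, and each stretch interval spans all 4 stretch values. The spread within a group is thus within counting error and cannot be read as a trait of the gene. Set against doxorubicin library 3 alone, stretch gave a log2 fold change of -1.0 for CCNE1.

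CCNE2 (chromosome 8, 94879770 to 94896678), the second E-type cyclin, was close to the detection level. It had 7, 8, 16 and 19 counts in stretch libraries 4 to 7, against 4, 3 and 19 counts in doxorubicin libraries 1 to 3. In CPM these are 0.935, 0.856, 1.73 and 2.04 after stretch, against 1.59, 2.59 and 3.59 after doxorubicin, so that the groups overlap. CCNE2 differed by -0.94 on the log2 scale (SE 0.54) with an adjusted p of 0.311 by edgeR, and the 95% interval was -2.12 to 0.24, so that at this depth a difference was not detectable. CDK2 (chromosome 12, 55966769 to 55972784), the kinase of cyclin E and cyclin A, stood at 29.1, 21.3, 24.5 and 26.1 CPM in stretch libraries 4 to 7, against 30.2, 29.4 and 34.0 CPM in doxorubicin libraries 1 to 3. The lowest doxorubicin value and the highest stretch value nearly met. CDK2 had a log2 fold change of -0.31 (SE 0.27) with an adjusted p of 0.511 by edgeR and a 95% interval from -0.91 to 0.29.

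The D-type cyclins, which couple growth signals to the cycle, both lay toward doxorubicin, CCND1 in all 3 doxorubicin libraries and CCND3 in libraries 1 and 2. CCND1 (chromosome 11, 69641087 to 69654474) stood at 79.3, 69.8, 57.7 and 57.0 CPM in stretch libraries 4 to 7, against 139, 145 and 96.2 CPM in doxorubicin libraries 1 to 3. The groups did not overlap, and the lowest doxorubicin value was that of library 3. The difference was -0.94 on the log2 scale (SE 0.29) with an adjusted p of 0.0943 by edgeR, 1.92-fold in size, and it was -0.53 against library 3 alone. CCND3 (chromosome 6, 41934933 to 42050357) stood at 274, 191, 144 and 201 CPM in stretch libraries 4 to 7, against 553, 989 and 226 CPM in doxorubicin libraries 1 to 3. Doxorubicin library 3 lay inside the stretch range and the other doxorubicin libraries above it. On the log2 scale it differed by -1.54 (SE 0.45) with an adjusted p of 0.0863 by edgeR, and the value was -0.93 without doxorubicin library 2 and -0.14 against library 3 alone. The remaining D-type cyclin, CCND2, which is no member, had 1, 0, 0 and 0 counts in stretch libraries 4 to 7 and 0, 3 and 2 counts in doxorubicin libraries 1 to 3, and was not tested.

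Of the kinases that D-type cyclins activate, CDK4 had nearly the same mean level in both groups. CDK6 lay toward doxorubicin in libraries 1 and 2, and the ratio of CDK6 to CDK4 overlapped between the groups. CDK4 (chromosome 12, 57747727 to 57756013) stood at 109, 148, 109 and 151 CPM in stretch libraries 4 to 7, against 105, 161 and 127 CPM in doxorubicin libraries 1 to 3, and the groups overlapped. Its log2 fold change was -0.02 (SE 0.30) with an adjusted p of 0.98 by edgeR, with a 95% interval from -0.67 to 0.64, and its sign changed in 9 of 17 alternatives. CDK6 (chromosome 7, 92604921 to 92836594) stood at 33.1, 46.8, 38.4 and 42.1 CPM in stretch libraries 4 to 7, against 96.9, 83.0 and 38.0 CPM in doxorubicin libraries 1 to 3. Doxorubicin libraries 1 and 2 lay above every stretch library, while library 3 was inside the stretch range. CDK6 had a log2 fold change of -0.85 (SE 0.35) with an adjusted p of 0.176 by edgeR, and it was -0.56 without doxorubicin library 1 and 0.092 against library 3 alone.

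In the retinoblastoma family, the proteins that hold E2F factors in check, the members lay on different sides. RB1 (chromosome 13, 48303726 to 48599436) stood at 15.1, 16.2, 23.6 and 18.8 CPM in stretch libraries 4 to 7, against 27.8, 30.3 and 16.4 CPM in doxorubicin libraries 1 to 3. Its groups overlapped through doxorubicin library 3. On the log2 scale RB1 differed by -0.41 (SE 0.33) with an adjusted p of 0.47 by edgeR, by -0.24 without doxorubicin library 2, and by 0.18 against library 3 alone. RBL2 (chromosome 16, 53433977 to 53491649) stood at 34.2, 91.4, 93.0 and 82.2 CPM in stretch libraries 4 to 7, against 89.3, 224 and 58.8 CPM in doxorubicin libraries 1 to 3. Stretch library 4 was the lowest and doxorubicin library 2 the highest, and each of the other doxorubicin libraries lay inside the stretch range. For RBL2 the log2 fold change was -0.71 (SE 0.49) with an adjusted p of 0.397 by edgeR, and it was -0.47 without stretch library 4, 0.035 without doxorubicin library 2 and 0.37 against library 3 alone.

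RBL1 (chromosome 20, 36996349 to 37095995), the only member with a log2 fold change above 0, was even in stretch and uneven in doxorubicin. It stood at 51.9, 41.1, 48.6 and 50.1 CPM in stretch libraries 4 to 7, against 25.4, 5.19 and 55.0 CPM in doxorubicin libraries 1 to 3. Doxorubicin libraries 1 and 2 lay below every stretch library and library 3 above every one. The highest doxorubicin library was 10.6-fold above the lowest, against 1.26-fold in stretch. In doxorubicin library 2 there were 6 counts, with an exact Poisson 95% interval of 1.9 to 11.3 CPM, whose upper end is below the lowest stretch value. RBL1 had a log2 fold change of 0.69 (SE 0.53) with an adjusted p of 0.451 by edgeR, and it was 0.24 without doxorubicin library 2, 1.56 without doxorubicin library 3 and -0.18 against library 3 alone. A positive value for RBL1 therefore rests on doxorubicin libraries 1 and 2.

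CCNE1 and RBL1 are both classical E2F target genes, and they lay on opposite sides of the comparison, so their promoter windows are shown. Each window is 300 bases around the RefSeq start (GRCh38.p14), mostly before it, and runs 5′ to 3′ on the gene's strand. The CCNE1 window is chr19:29811741-29812040 on the plus strand, with capitals on the letters GGGCGG of a GC box on either strand. The RBL1 window is chr20:37095948-37096247 on the minus strand, with capitals on E2F letters.
CCNE1: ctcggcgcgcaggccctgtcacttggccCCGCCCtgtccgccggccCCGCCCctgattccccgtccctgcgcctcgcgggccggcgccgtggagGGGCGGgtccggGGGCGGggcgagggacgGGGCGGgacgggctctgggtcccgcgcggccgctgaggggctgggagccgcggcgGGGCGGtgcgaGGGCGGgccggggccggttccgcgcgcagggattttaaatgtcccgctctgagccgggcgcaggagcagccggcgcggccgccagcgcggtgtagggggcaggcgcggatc
RBL1: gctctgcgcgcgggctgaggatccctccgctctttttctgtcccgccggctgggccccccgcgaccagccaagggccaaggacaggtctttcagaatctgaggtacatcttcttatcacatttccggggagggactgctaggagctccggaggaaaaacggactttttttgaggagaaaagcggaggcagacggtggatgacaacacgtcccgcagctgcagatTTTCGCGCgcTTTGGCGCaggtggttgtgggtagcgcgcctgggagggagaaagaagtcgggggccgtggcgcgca
The E2F letters searched on both strands were TTTCCCGC, TTTCGCGC, TTTGCCGC and TTTGGCGC, and 3.31% of 35116 windows of the same length hold at least 1 of them. The RBL1 window holds 2, TTTCGCGC and TTTGGCGC, whose first bases lie 26 and 16 bases before the start, and they do not overlap each other. The CCNE1 window holds none of these E2F letters and 7 GC boxes, where 45.0% of windows hold at least 1. Of the 10 members, 7 have at least 1 window in the table, and among the 11 windows of these 7 the E2F letters occur in that of RBL1 alone. Every window of CCND3, CDK4, RB1 and RBL2, and 1 of those of CDK6, lies wholly inside the gene's span as given above. A match of letters is a description of the window and not a site. Other forms of E2F sequence were not searched, so a window without these letters may still hold an E2F site.

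**Figure D2:**
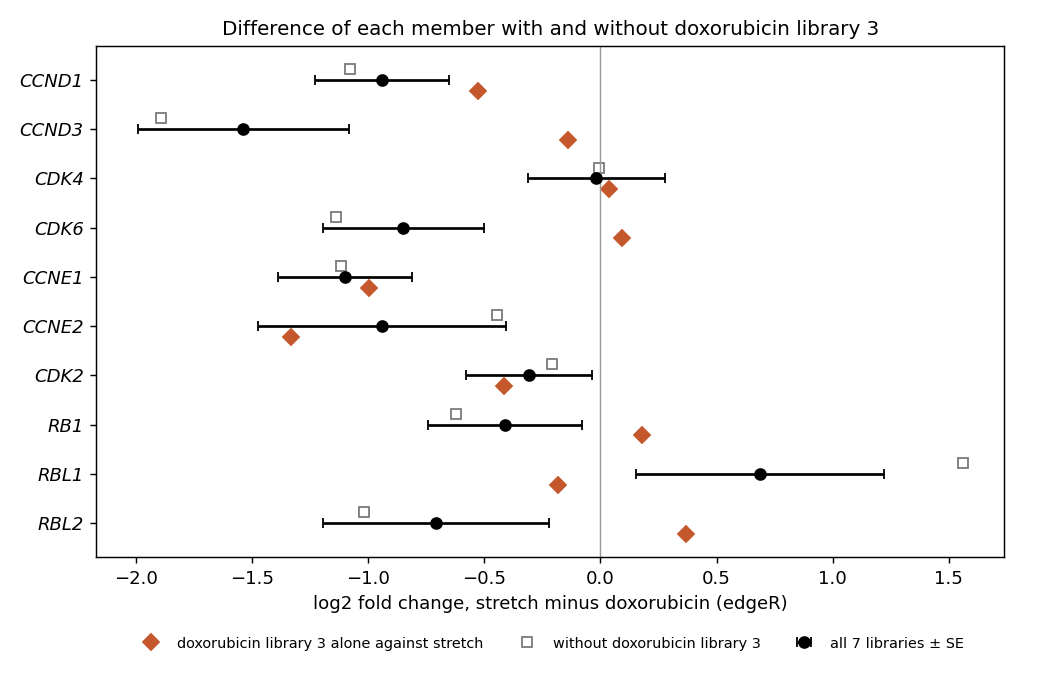
Log2 fold change of each member, stretch minus doxorubicin, by edgeR with all 7 libraries (filled circles ± SE), with library 3 alone standing for doxorubicin (diamonds) and without that library (open squares). The diamonds of CCNE1, CCNE2 and CDK2 lie at -1.0, -1.33 and -0.41, while those of CDK6, RB1 and RBL2 lie above 0 and that of RBL1 at -0.18.

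Read library by library, the 3 doxorubicin samples did not place the 10 genes alike against the stretch range. In doxorubicin library 2, 9 members lay above the range and 1 below, where 35.3% of all tested genes were above and 48.0% below. In doxorubicin library 1, 6 lay above, 2 inside and 2 below, where 35.3% of all genes were above and 35.6% below. In doxorubicin library 3, which among the doxorubicin libraries had the fewest rows at a count of 0 (5.10%, against 10.9% and 21.4%), 5 lay above (CCND1, CCNE1, CCNE2, CDK2 and RBL1), 5 inside and 0 below. There 28.4% of all genes were above and 28.3% below. CCNE1, CCND1 and CDK2 were the members above the stretch range in every doxorubicin library, as were 9.88% of all genes. For CDK2 the margin was small, with 29.4 CPM in doxorubicin library 2, on 34 counts, against a highest stretch value of 29.1 CPM. The part of depth and of the EIF4A2 share in these differences between doxorubicin libraries was not tested.

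Ratios of related members within a library do not depend on how libraries are scaled. Over the 6 ratios examined the groups overlapped in every case, and no ratio differed beyond the spread between libraries. The ratio of CDK6 to CDK4 counts was 0.304, 0.316, 0.351 and 0.278 in stretch libraries 4 to 7, against 0.921, 0.516 and 0.299 in doxorubicin libraries 1 to 3. The mean log2 ratio was -1.68 ± 0.14 (SD, n = 4) in stretch and -0.94 ± 0.81 (SD, n = 3) in doxorubicin, with p = 0.229 in a two-sided exact permutation test and 0.571 after Benjamini-Hochberg adjustment over the 6 ratios. With 3 libraries against 4 this test cannot go below 0.0571. The ratio of RBL1 to RBL2 was 1.52, 0.450, 0.523 and 0.610 in stretch, against 0.284, 0.0232 and 0.936 in doxorubicin, and here too the exact permutation p, 0.286, did not separate the groups. For CCND1 to CCND3 the difference of mean log2 ratios was 0.40, for CCNE1 to CCNE2 -0.11, for RB1 to RBL2 0.18 and for CDK4 to CDK2 0.30, with two-sided exact permutation p between 0.286 and 0.8.

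**Figure D3:**
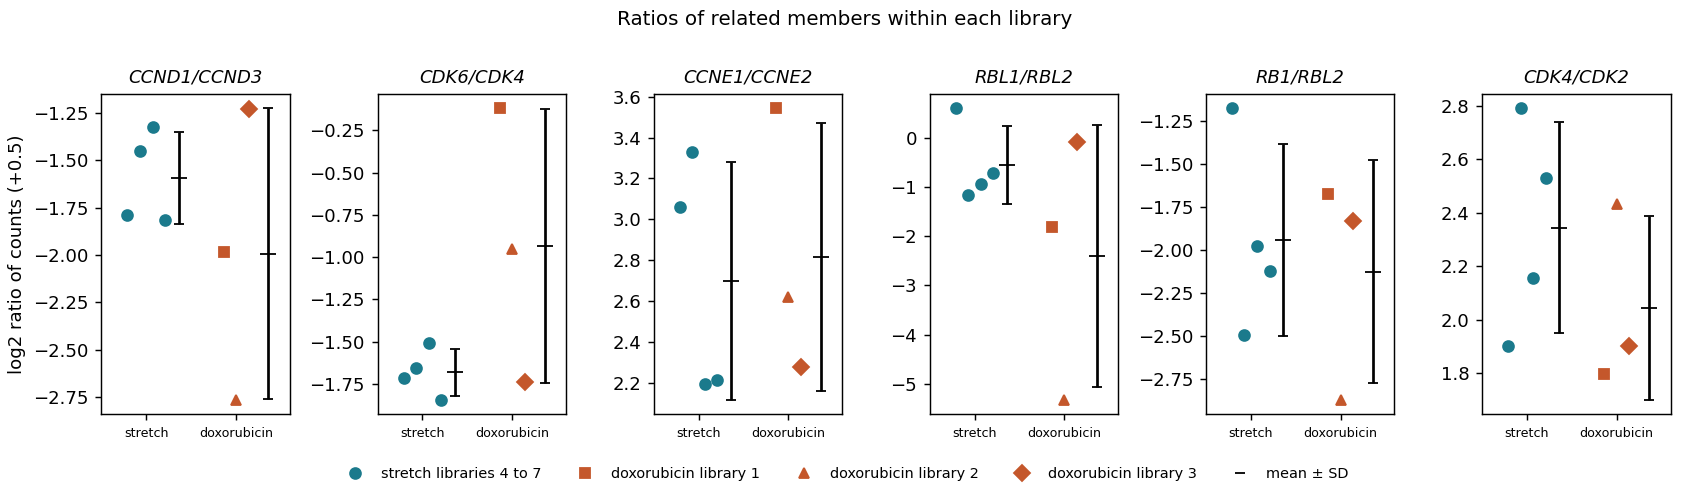
Log2 ratio of the counts of related members (0.5 added to each) in each library, with 4 stretch libraries on the left and 3 doxorubicin libraries on the right of each panel and the mean ± SD beside each group; the axes differ between panels. The CDK6/CDK4 panel shows doxorubicin library 3 at -1.74, inside the stretch range of -1.84 to -1.51, and doxorubicin library 1 at -0.12.

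The rest of the pathway was read from 8 lists with 89 tested genes. In edgeR's quasi-likelihood test none of them passed, and 13 had an unadjusted p under 0.05, where 23.2% of all genes did. Limma-voom called 0 of the 89. With library quality weights it called 36, of which 20 lay toward stretch and 16 toward doxorubicin, where 47.0% of all genes were called. Without doxorubicin library 3, edgeR called 26, of which 15 lay toward stretch and 11 toward doxorubicin, where 32.2% of all genes were called. DESeq2 called 6 of the 89, all toward doxorubicin, where 10% of all genes were called. Those 6 were CDKN1A and the E2F and DP genes TFDP1, E2F1, E2F2, E2F3 and E2F5, which code the factors that pocket proteins bind. Among the 10 tested E2F and DP genes 8 lay on the doxorubicin side, with a median log2 fold change of -0.65. TFDP1, the DNA-binding partner of E2F factors, stood at 59.0 ± 7.37 CPM in stretch (SD, n = 4) and 208 ± 176 CPM in doxorubicin (SD, n = 3), and doxorubicin library 2 was at 408 CPM. E2F1, the activator set free when RB1 is phosphorylated, stood at 38.3 ± 7.59 CPM in stretch and 116 ± 106 CPM in doxorubicin, where library 1 was at 59.96, library 2 at 239 and library 3 at 48.96 CPM. Without doxorubicin library 2 the log2 fold change of TFDP1 was -0.85 in place of -1.81, and that of E2F1 -0.50 in place of -1.58. The adjusted p of TFDP1 was 0.0687 and that of E2F1 0.107 by edgeR. E2F2 was scarce, at 1.74, 0.214, 0.216 and 0.108 CPM in stretch libraries 4 to 7, against 4.37, 0 and 11.2 CPM in doxorubicin libraries 1 to 3.

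Genes that E2F factors are known to switch on at the start of S phase lay on both sides. Of 25 tested, 14 lay on the stretch side and 11 on the doxorubicin side, with a median of 0.14, and 1 had an unadjusted p under 0.05. That gene was CDT1, which loads the replicative helicase, at 17.4 ± 4.36 CPM in stretch and 36.4 ± 27.1 CPM in doxorubicin (adjusted p = 0.201 by edgeR). Its log2 fold change of -1.03 was -0.28 without doxorubicin library 2. CHEK1, the checkpoint kinase, stood at 5.80 ± 1.30 CPM in stretch and 1.93 ± 2.27 CPM in doxorubicin. It had 1, 1 and 24 counts in doxorubicin libraries 1 to 3, and library 3, at 4.54 CPM, lay inside the stretch range. CCNA2, the S-phase cyclin, stood at 42.8 ± 12 CPM in stretch and 37.2 ± 16.9 CPM in doxorubicin. The median of the list was -0.31 with doxorubicin library 3 alone. The 8 markers of cycling cells, MKI67 and TOP2A among them, summed to 480 to 716 CPM in stretch libraries and to 424, 572 and 859 CPM in doxorubicin libraries 1 to 3. Singly, 5 of them lay on the stretch side and 3 on the doxorubicin side. An unadjusted p under 0.05 was reached by 2 (25%, where 23.2% of all genes reached it). These were CENPF and PLK1, with log2 fold changes of 1.17 and 0.77. PLK1 did not overlap between the groups, as was so for 21.4% of all genes. The part of cycling cells in the levels given here was not tested.

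Of the inhibitors of cyclin-dependent kinases, CDKN1A had the lowest adjusted p, at 244 ± 28.2 CPM in stretch and 703 ± 356 CPM in doxorubicin (adjusted p = 0.0651 by edgeR). Its highest stretch level was 271 CPM, against 898, 919 and 292 CPM in doxorubicin libraries 1 to 3, so that the groups did not overlap. CDKN1B, the inhibitor p27, stood at 32.8 ± 7.29 CPM in stretch and 27.2 ± 10.3 CPM in doxorubicin, and CDKN2C, which blocks CDK4 and CDK6, at 37.0 ± 9.65 CPM in stretch and 24.6 ± 12.4 CPM in doxorubicin. Among 13 genes for the turnover of G1 cyclins and inhibitors 7 lay on the stretch side. An unadjusted p under 0.05 was reached by 4 (30.8%), where 23.2% of all genes reached it. Of these, CUL3, FZR1 and GSK3B lay toward doxorubicin and RBX1 toward stretch, with a log2 fold change of 1.19. CUL3, the scaffold of a ubiquitin ligase that acts on cyclin E, was at 44.5 ± 3.06 CPM in stretch and 74.2 ± 13.3 CPM in doxorubicin, and its groups did not overlap (adjusted p = 0.139 by edgeR). FZR1, the activator of the anaphase-promoting complex in G1, was at 3.85 ± 1.91 CPM in stretch and 10.01 ± 4.22 CPM in doxorubicin.

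The 4 other lists had medians close to 0. The DREAM and MuvB list had a median of -0.11 over 7 genes. It holds genes of the repressor complex that RBL1 and RBL2 join, and also MYBL2 and FOXM1. The log2 fold change was 1.1 for LIN52, with 0, 0 and 15 counts in doxorubicin libraries 1 to 3, and 0.55 for LIN9. Genes of CDK activation and of the CDC25 and WEE1 control of CDKs had a median of 0.12 over 9, with CDC25B, a CDK phosphatase, at -0.63 and CDC37, a chaperone of kinases such as CDK4, at 0.66. Other cyclins and CDKs had a median of -0.07 over 9, with CCNG2 at 1.43 and CCNF at -0.79. In doxorubicin libraries 1 to 3 CCNG2 had 8, 0 and 5 counts and CCNF 6, 7 and 25 counts. Chromatin factors that partner RB1 had a median of 0.16 over 12. In that list DNMT1, the maintenance DNA methyltransferase, stood at 28.2 ± 8.93 CPM in stretch and 11.97 ± 8.33 CPM in doxorubicin, and EHMT1, a histone methyltransferase, at 11.5 ± 2.44 CPM in stretch and 5.41 ± 3.19 CPM in doxorubicin. None of these genes passed the threshold.

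**Figure D4:**
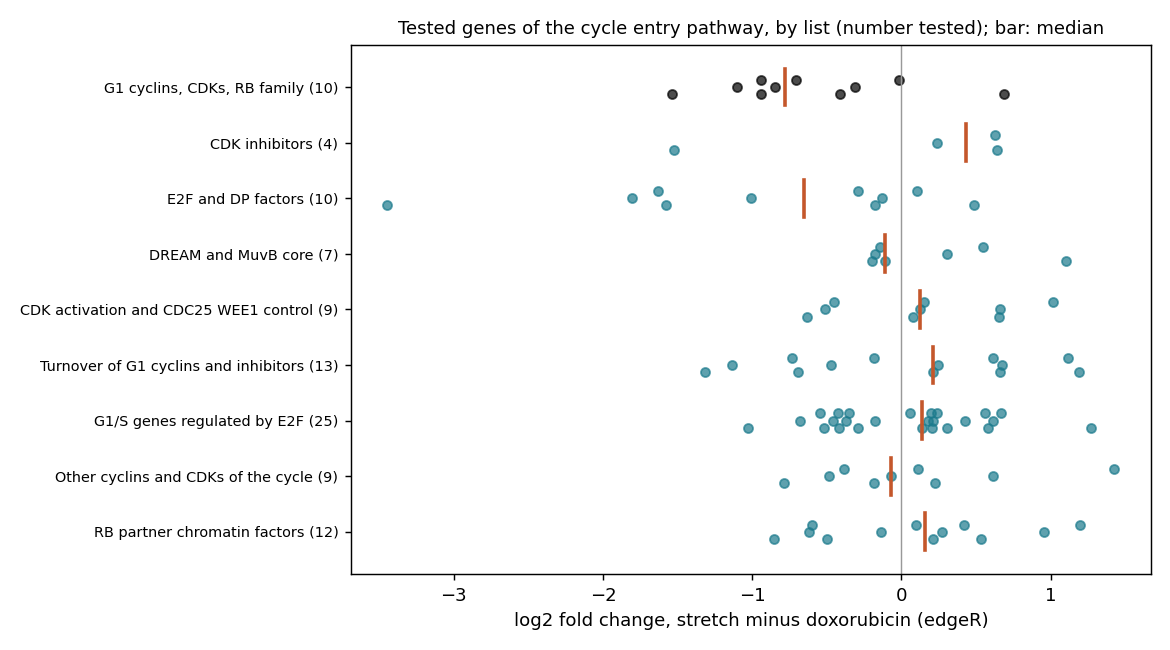
Log2 fold change, stretch minus doxorubicin, of each tested gene (circles) and the median (bars) for the 10 members and for 8 lists of the pathway, with the number tested in parentheses; the vertical place of a circle within its row carries no value. The members' median is -0.78 and that of the E2F and DP genes -0.65, while the other lists have medians between -0.11 and 0.43.

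Among the members, levels of CCND1 and CCND3 went together over the 7 libraries, with a Pearson correlation of log-CPM of 0.92, and CCND1 and CCNE1 had 0.89. RBL1 ran against CCND3 at -0.90 and against RBL2 at -0.82. These libraries share the treatment groups and the scaling, and the values are a description. Over 7500 genes with a mean of at least 10 CPM, those closest to CCNE1, the member with the lowest adjusted p, were OAS3, C1S and ISG15, each at 0.99. OAS3, an enzyme that senses double-stranded RNA, stood at 11.6, 11.02, 9.62 and 13.8 CPM in stretch libraries 4 to 7, against 58.0, 53.6 and 37.6 CPM in doxorubicin libraries 1 to 3. C1S, a complement protease, stood at 39.6 ± 9.25 CPM in stretch and 148 ± 25.9 CPM in doxorubicin. ISG15, an interferon-induced ubiquitin-like protein, stood at 7.08, 5.78, 5.19 and 6.78 CPM in stretch libraries 4 to 7, against 556, 362 and 172 CPM in doxorubicin libraries 1 to 3. All 3 were called by edgeR, lower in stretch. They were picked over the same 7 libraries for their correlation with CCNE1, whose groups do not overlap. The side on which they lie thus follows from that choice, and the calls are not independent of it. For all 3 the lowest doxorubicin value was in library 3. CCNE1 was also lowest there, but its order among the doxorubicin libraries is within counting error.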

How the data were processed

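Gene expression was measured in 7 libraries of β-galactosidase-sorted A549 cells, 4 after stretch and 3 after doxorubicin, grouped by sample title. Per the labels' protocols, an Ion AmpliSeq human transcriptome kit was used, which amplifies a stretch of each transcript by PCR with no molecular identifiers, so levels are compared between libraries and not between genes. The authors deposited 1 table of estimated counts per gene as whole numbers, with no scaling across libraries. The submitters' processing notes name fastp 0.20.1, Salmon 1.9 and GRCh38, and Salmon's fractional estimates are taken to have been rounded. For the annotation, the summing of transcripts and strand, the setting is not given in the sources used here. CDK2 lies within the span of PMEL, and CDK4, CCNE2, RB1 and RBL2 overlap other genes of the count table on the opposite strand. CCND1, CCND3, CDK6 and RBL1 overlap opposite-strand genes whose symbols are not in the count table, such as LTO1 for CCND1. Reads of overlapping genes may not be told apart.

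Of 14647 rows, those of 64 repeated symbols were summed and Metazoa_SRP, which names no gene (at most 0.00861% of a library), was left out. The fit used R 4.3.3 with edgeR 4.0.16 (filterByExpr, TMM, robust quasi-likelihood F-test, Benjamini-Hochberg over 11230 genes, threshold 0.05). DESeq2 1.42.0 and limma 3.58.1 were used in some of 17 alternatives. The SE of a log2 fold change was taken as its size divided by the square root of F. Log-CPM used a prior count of 2 and log2 ratios a pseudocount of 0.5. No library was a copy of another (chi-square per degree of freedom at least 8.02 over 21 pairs). The test was tried on simulated counts, whose outcome is not reported here, and no statement above rests on it. Members and lists were chosen with earlier results of these data known. Named genes were all members, in each list those past the threshold or else the lowest 2 by adjusted p, and CDKN1A, CDKN1B, E2F1, CCNA2 and CCND2, and the 3 genes best correlated with the member of lowest adjusted p. E2F3, E2F5, GSK3B, RBX1, CENPF and PLK1 were named after their values were seen. Coordinates are from GENCODE 29 on GRCh38 and promoter windows from RefSeq.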

Additional observations from a re-analysis of the deposited data

How the results depend on the processing

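Under library totals alone the median of all genes moved to 0.71 (log2; 0.02 with TMM), and the members' median to 0.17. There CDK2, CDK4, CDK6, RB1 and RBL2 were at 0.39, 0.76, 0.027, 0.43 and 0.31, and CUL3 and CDC25B at 0.042 and 0.24. Relative to that shift 8 of 10 members still lay on the doxorubicin side, with CDK4 and RBL1 the exceptions. CCND1, CCND3, CCNE1 and CCNE2 were negative in every alternative that tested them. RLE factors, limma-voom and leaving out EIF4A2 and TAF1D turned no member's direction. CDK4 was 0.051 with upper-quartile factors, 0.080 with no filter, 0.0071 with genes averaging 10 CPM or more, and 0.33 with library quality weights. DESeq2 gave -0.92, -1.54 and -1.07 for CCND1, CCND3 and CCNE1 (3 members called). Quality weights gave -1.11, -1.55, -1.18, -1.11, -0.58 and 0.86 for CCND1, CCND3, CCNE1, CDK6, RB1 and RBL1 (6 called).

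With doxorubicin library 3 alone, an alternative in which the lone library is assumed to vary like the stretch group, CDK4, CDK6, RB1, RBL1 and RBL2 were at 0.038, 0.092, 0.18, -0.18 and 0.37, and LIN9, CDKN1B and CCNA2 at -0.062, -0.070 and -0.30. The log2 ratio differences were then -0.37 for CCND1/CCND3, 0.059 for CDK6/CDK4, 0.42 for CCNE1/CCNE2, -0.45 for RBL1/RBL2 and -0.11 for RB1/RBL2. A pseudocount of 2 gave 0.023 for CCNE1/CCNE2.

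Leaving out each library in turn gave -1.08 to -0.83 for CCND1, -1.89 to -0.93 for CCND3, -1.15 to -1.02 for CCNE1, -1.14 to -0.56 for CDK6, -0.14 to 0.16 for CDK4, 0.24 to 1.56 for RBL1 and -1.02 to 0.035 for RBL2. It gave -0.0081 to 0.47 for CDKN1B, -0.11 to 0.62 for CCNA2, -0.38 to 0.25 for CCNE1/CCNE2 and -0.19 to 0.41 for RB1/RBL2. Members called ran from 0 to 5. Of all genes, 12 to 3736 were called (0 to 1858 toward stretch, 12 to 1878 toward doxorubicin). The other counts, as total, toward stretch and toward doxorubicin, were 13, 2 and 11 with library totals, 143, 20 and 123 with genes averaging 10 CPM or more, 1315, 405 and 910 with DESeq2, 5276, 2601 and 2675 with quality weights, and 99, 10 and 89 with doxorubicin library 3 alone. The cause was not tested. CCNE2 was not tested without stretch library 6 or 7, nor among genes averaging 10 CPM or more. No paired analysis was possible because the groups share no replicate number. Depth limits CCNE2 and, in doxorubicin library 2, RBL1. In that library CCNE1, CDK2 and RB1 also rest on few counts, with 21, 34 and 35.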
